A study of Mus musculus with 3 samples.

Results

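The Spalt genes Sall1, Sall2, Sall3 and Sall4 were examined in microdissected mouse otic placodal ectoderm, the patch of head ectoderm that forms the inner ear. Members were the spots that were no control and carried one of these 4 gene names, which gave 6 probes for 4 of the 27962 gene names on the array. Sall1 and Sall2 had 1 probe each, and Sall3 and Sall4 had 2 each. The comparison was between Fgf3-/-;Fgf10-/- placodes (double null) and Fgf3+/-;Fgf10+/- placodes (double heterozygote), so both genotypes carried null alleles of the 2 growth factor genes and no wild-type placode was measured. Embryos had 4 to 8 somites, and no treatment was given. Each of 3 arrays set RNA from a pool of 10 double null placodes against RNA from a pool of 10 double heterozygote placodes, amplified before hybridisation. The double heterozygote carried the dye Cy3 and the double null Cy5 on every array, so a dye effect of a probe and the genotype cannot be told apart.

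SALL proteins are nuclear zinc finger factors related to the fly gene spalt. They carry pairs of zinc fingers spread along the protein, and a short motif at the amino end of several members recruits the NuRD chromatin remodelling and deacetylase complex. Mutations of SALL1 or SALL4 in people cause syndromes with limb, kidney and ear defects and hearing loss, and in chick a Spalt gene acts in otic placode formation downstream of fibroblast growth factors. Sall4 also belongs to the pluripotency circuit of the early embryo, and Sall1 is needed for kidney development.

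Agilent probes are 60-base strands, and the value of a Spalt gene is the brightness of these few strands. The Sall1 probe A_52_P423574 lies on chromosome 8 at 87622587 to 87622646 of mm7, minus strand. The dimmer Sall4 probe, A_51_P145260, lies on chromosome 2 at 168545326 to 168545385, minus strand. The Sall1 probe is shown because the value of that gene rests on it alone, and this Sall4 probe because its ratios ran differently over the arrays from those of the other Sall4 probe. Capitals mark the longest run that each shares, on either strand, with a probe of another gene on the array.

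Sall1 A_52_P423574: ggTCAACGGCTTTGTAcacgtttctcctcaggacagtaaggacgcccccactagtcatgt

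Sall4 A_51_P145260: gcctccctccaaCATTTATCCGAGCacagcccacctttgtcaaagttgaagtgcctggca

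The shared run was 14 bases for the Sall1 probe, with a Tmod2 probe, and 13 bases for the Sall4 probe, with a Gnl3l probe. Among all 6 Spalt probes the longest such run was 13 or 14 bases, and the probe listed for each run was of a gene outside the family. Base composition ranged from 35.0% G and C in the second Sall3 probe to 53.3% in the Sall1 probe and the dimmer Sall4 probe, around a median of 40.0% over all probes. The Sall2 probe lies on chromosome 14 at 47644999 to 47645058, the Sall3 probes on chromosome 18 at 81254948 to 81255007 (A_52_P405655) and 81252740 to 81252799 (A_52_P159365), and the brighter Sall4 probe, A_51_P349087, on chromosome 2 at 168541487 to 168541546. All are on the minus strand of mm7. The brighter Sall4 probe was designed on a cDNA clone annotated Tex20 in the files, an older name of Sall4 in RefSeq, and it starts 3839 bases downstream of the other Sall4 probe. Exon and UTR positions on mm7 were not analysed here.

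None of the 4 Spalt genes passed the test between genotypes. Every Spalt probe passed the scanner's background test in each channel of the 3 arrays, so the RNA of each gene was measured in both genotypes. With limma and Benjamini-Hochberg adjustment over 16842 genes at a threshold of 0.05, 0 of 4 Spalt genes were called, and 0 of 4 had an unadjusted p under 0.05. Over all genes 411 were called, or 2.44%, of which 0.552% of genes were lower and 1.89% higher in the double null, and 22.2% had an unadjusted p under 0.05. The median log2 ratio, double null over double heterozygote, was -0.023 over the 4 Spalt genes and 0.0063 over all genes. In placode pools, fewer cells of a type and less RNA per cell cannot be told apart. All values below are from normexp background correction and loess normalization within arrays, and an interval is the 95% interval of the limma fit. An SE of a ratio is also that of the limma fit, in which each variance is drawn toward that of all genes or probes fitted. It is thus not the SE of the 3 arrays alone, and it can be smaller or larger than that.

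Sall1, the gene mutated in the Townes-Brocks syndrome of ear, limb and kidney defects, stood closest to 0 among the genes. Its log2 ratios on the 3 arrays were -0.14, 0.10 and 0.05. Array 1 was below 0 and the other arrays were above it. The mean was 0.0061 ± 0.062 (SE, n = 3), a fold of 1.00 with an interval of 0.905 to 1.11 (limma adjusted p = 0.965). A fall of Sall1 to under 0.905 of the double heterozygote level, or a rise above 1.11, lay outside the interval in this processing, but not in every other. As a log2 ratio this interval was -0.14 to 0.16. It was -0.22 to 0.19 with background subtraction, -0.080 to 0.23 without replicate 1 and -0.23 to 0.14 without replicate 2. Its normalized log2 levels in the double heterozygote were 9.14, 9.01 and 9.10, and in the double null 9.004, 9.11 and 9.16. The ranges of the genotypes overlapped.

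Sall2, a member with roles in neural development, had the lowest mean ratio. Its log2 ratios were -0.15, -0.27 and 0.03, so that 2 of 3 arrays were below 0 and array 3 was slightly above. The mean was -0.13 ± 0.07 (SE, n = 3), a fold of 0.912 with an interval of 0.813 to 1.02 (limma adjusted p = 0.306). The log2 levels were 14.04, 14.05 and 13.91 in the double heterozygote and 13.89, 13.78 and 13.94 in the double null. The highest double null pool lay above the lowest double heterozygote pool, and both were on array 3. With each array left out in turn the mean ranged from -0.21 (without replicate 3) to -0.062 (without replicate 2), and adjusted p from 0.239 to 0.713.

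Sall3, a close relative of Sall1 with known roles in neural and head development, had the highest mean ratio, and its probes did not give the same value. The brighter probe had log2 ratios of 0.17, -0.055 and 0.20, low on array 2 and high on the other arrays. Its mean was 0.11 ± 0.07 (SE, n = 3), a fold of 1.08 with an interval of 0.965 to 1.202 (limma adjusted p = 0.379). Its levels were 11.32, 11.54 and 11.44 in the double heterozygote and 11.49, 11.48 and 11.64 in the double null, with overlapping ranges. The second probe had log2 ratios of 0.07, -0.063 and -0.0039, all close to 0, and its mean was 0.0011 ± 0.053 (SE, n = 3; adjusted p = 0.993 in the limma fit over 25506 probes). The brighter probe exceeded the second by 0.10, 0.0083 and 0.20 on the 3 arrays. With the probes averaged the estimate for Sall3 was 0.054.

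Sall4, the factor of the pluripotency circuit and of Duane-radial ray syndrome, had probes with like means and unlike arrays. The brighter probe had log2 ratios of -0.081, -0.22 and 0.14, lowest on array 2. Its mean was -0.052 ± 0.075 (SE, n = 3), a fold of 0.964 with an interval of 0.8497 to 1.09 (limma adjusted p = 0.715). The second probe, printed above, had log2 ratios of -0.20, 0.016 and 0.045, lowest on array 1, with a mean of -0.046 ± 0.064 (SE, n = 3; adjusted p = 0.719 in the probe fit). On array 2 the brighter probe lay 0.23 below the second, and on arrays 1 and 3 it lay 0.12 and 0.097 above it. The difference between the probes was -0.0060 ± 0.20 (SD, n = 3), and they are 1 gene measured with 2 strands, not replicates. The levels of the second probe were lowest on array 1 and highest on array 3 in both channels, at 9.67, 9.93 and 10.09 in the double heterozygote and 9.47, 9.95 and 10.14 in the double null. Those of the brighter probe were 12.86, 13.21 and 12.99 against 12.78, 13.00 and 13.13.

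**Figure D1:**
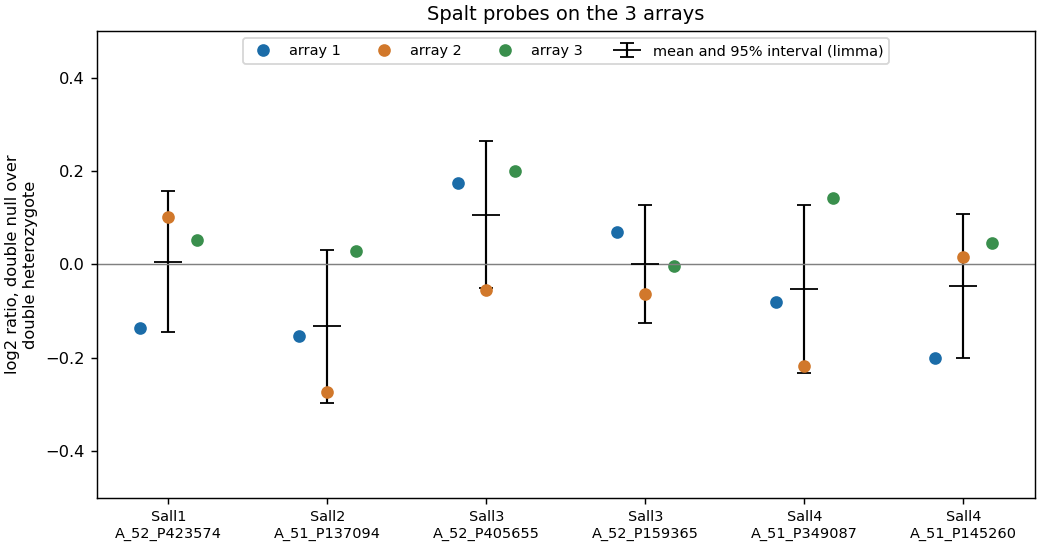
Log2 ratio of double null over double heterozygote (vertical axis) for the 6 Spalt probes, each array as a coloured point, with the mean and 95% interval of the limma fit over all probes in black. All 6 intervals include 0, and each probe has arrays on both sides of 0.

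Across the 6 probes, 0 had one sign on all 3 arrays, against 43.8% of the 25497 probes (45.8% of genes) measured on every array. The mean was within 0.1 of 0 for 4 of the 6, against 64.2% of those probes. None was called in the fit over 25506 probes, in which 1.51% were (0.29% lower and 1.22% higher in the double null). The ranges of the genotypes overlapped for all 6, and over all probes they did not overlap for 16.4%. The SD over the 3 arrays was between 0.067 and 0.18 for the Spalt probes, beside a median of 0.089 over probes, so that the brighter Sall4 probe, at 0.18, varied most and the second Sall3 probe least. The authors' deposited table of spots also holds a p for each spot from the scanner's error model. For the Spalt probes these 18 values lay between 0.238 and 0.975, while between 3.62% and 5.09% of tested probes per array were under 0.05.

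**Figure D2:**
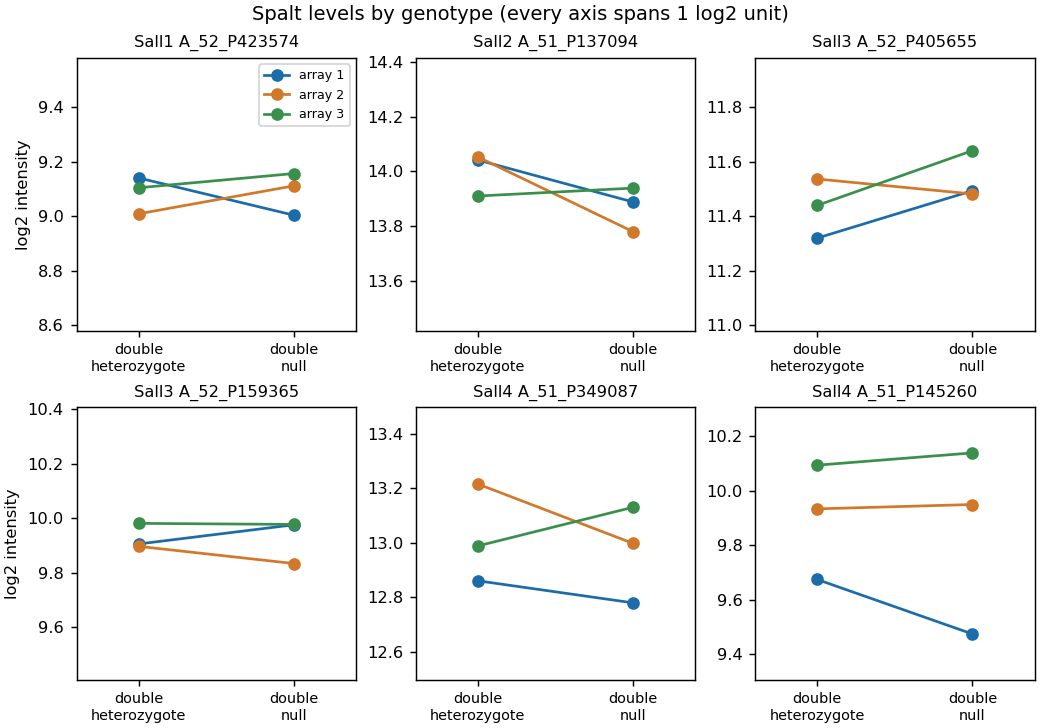
Normalized log2 intensity (vertical axes, each spanning 1 log2 unit) of the 6 Spalt probes in the double heterozygote and double null channel, with a line joining the pools of 1 array. Lines slope in both directions in every panel, and the ranges of the genotypes overlap in all 6.

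Set against each other by the ratio of their brightest probe, the genes ran from Sall2 (-0.13) through Sall4 (-0.052) and Sall1 (0.0061) to Sall3 (0.11). Sall2 minus Sall4 was below 0 on all 3 arrays, with a mean log2 difference of -0.081 ± 0.029 (SD, n = 3). Against the second Sall4 probe it was 0.046, -0.29 and -0.016. Sall1 minus Sall4 was 0.058 ± 0.23 and Sall1 minus Sall3 was -0.10 ± 0.24, both with arrays of either sign. The widest gap, Sall2 minus Sall3, was -0.33, -0.22 and -0.17 on the 3 arrays. Against the second Sall3 probe it was -0.22, -0.21 and 0.033. Of the 15 pairs of Spalt probes, 6 kept one sign on all arrays. The pairs reuse the same 6 probes and are not independent. The share among pairs of other probes was not worked out, so this count is no result about the Spalt genes. The smallest two-sided exact p that sign changes over 3 arrays can give is 0.25, and the smallest adjusted over the 15 pairs was 0.625, so no pair could be told apart by this test.

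The order of the ratios depended on the arrays used and on the correction for brightness. Without replicate 2 Sall1 (-0.042) lay below Sall4 (0.030), and without replicate 1 Sall1 (0.078) lay slightly above Sall3 (0.073). Loess removes a trend of the ratio with brightness, and median centring does not. With each array centred on its median the 4 genes were at 0.31 (Sall1), 0.54 (Sall2), 0.59 (Sall3) and 0.53 (Sall4), all past the threshold, but the median of all genes tested was then 0.40 and 13425 genes were called. Recentred on the genes tested, a setting chosen after seeing the data, the ratios were -0.084, 0.15, 0.20 and 0.13. Sall1, Sall2 and Sall4 thus had the opposite sign to that after loess, and Sall3 passed the threshold (limma adjusted p = 0.0433), as did 8893 genes. The Sall3 call and the Sall4 change of sign were those of the brighter probes only. After recentring the second Sall3 probe was at -0.0050 and did not pass. The second Sall4 probe was at -0.059 and kept its sign. In no other setting did a Spalt gene pass, and there Sall2 ranged from -0.21 to -0.062 and Sall3 from 0.054 to 0.19. Apart from plain median centring, which raised the genes as a whole, Sall1 changed sign in 9 settings, Sall4 after recentring and without replicate 2, Sall2 after recentring alone and Sall3 in 0.

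**Figure D3:**
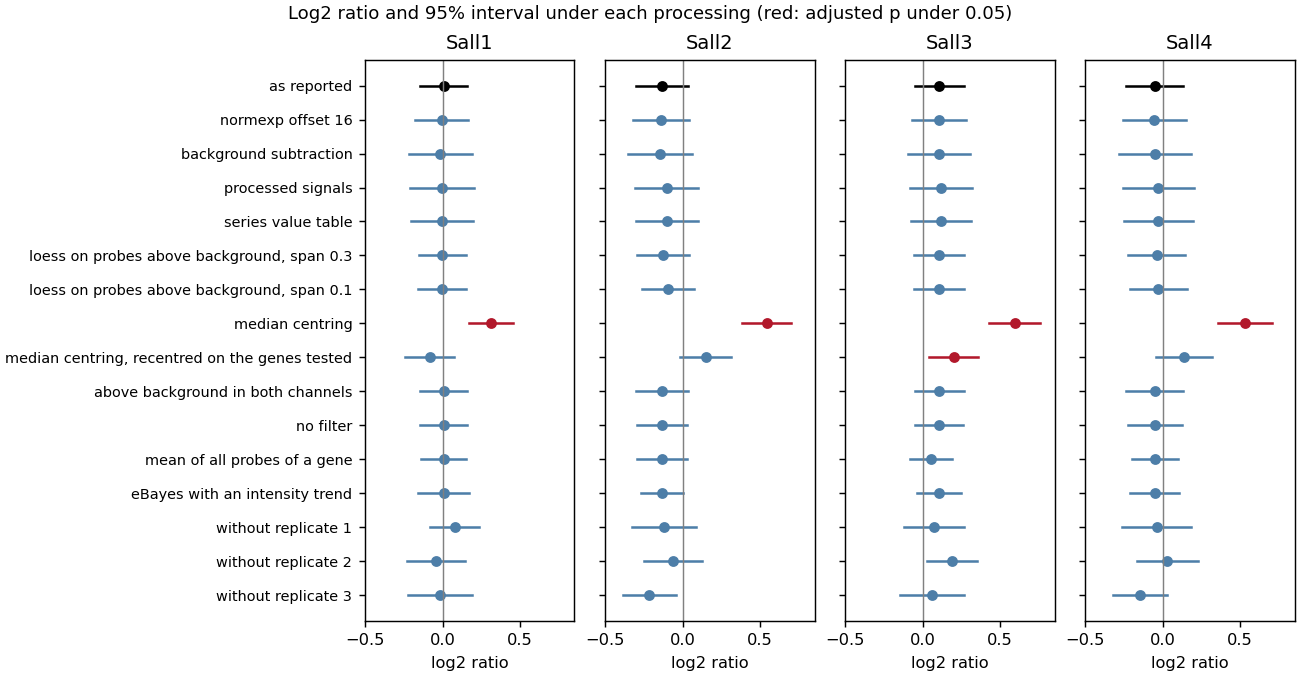
Log2 ratio of double null over double heterozygote (horizontal axes) with its 95% interval for Sall1 to Sall4 under the processing reported (black, top) and 15 alternatives, red where the adjusted p was under 0.05. The red points are those of median centring for all 4 genes and of recentred median centring for Sall3.

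The genes read beside the Spalt genes were grouped by role. FGF response genes, which include the feedback inhibitors and ETS factors that act between the receptor and otic targets, had 2 of 11 tested members lower and 0 higher, with a median log2 ratio of -0.14. Over all genes 0.552% were called lower and 1.89% higher. Dusp6, an ERK phosphatase, fell on arrays 1 to 3 by 0.39, 0.47 and 0.64 (mean -0.50 ± 0.06, SE; limma adjusted p = 0.0148). After recentred median centring it was at -0.16 (adjusted p = 0.0733). Spred3, which restrains Ras and ERK signalling, fell by 0.44 ± 0.07 (limma adjusted p = 0.0376). Etv4, whose chick counterpart acts on a Spalt enhancer in the otic placode, had log2 ratios of -0.66, -0.45 and -0.068 and did not pass (adjusted p = 0.118). Etv4 was named after its value was seen.

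Of the otic placode factors 4 of 10 tested members were called lower and 0 higher, beside 0.552% and 1.89% of all genes. All 10 were below 0, with a median of -0.32. Counts of members below or above 0, here and below, stand without the share over all genes, which was not worked out. The median over all genes was 0.0063. Hmx3 and Hmx2, homeobox genes of the vestibular inner ear, fell by 1.01 ± 0.18 and 0.59 ± 0.08 (SE, n = 3; limma adjusted p = 0.049 and 0.0207). Sox9, an otic and neural crest factor, fell by 0.69 ± 0.12 (limma adjusted p = 0.0438), and its other probes gave -0.40 and -0.0040. The 6 calls in the FGF response and otic placode lists were lost together with background subtraction, the processed signals, the series table, loess of span 0.1 and without replicate 3. In the same samples the interval of every Spalt gene ended above the mean of each of these 6 genes, the lowest limit being a log2 ratio of -0.30 for Sall2. The 6 genes were named because they were called low in this same fit, so a gap to uncalled genes near 0 was built in. As intervals, Spred3 (-0.61 to -0.27) and Sall2 (-0.30 to 0.032) overlapped. The difference between a Spalt gene and a called gene was not tested.

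Partners of SALL proteins held no call. The NuRD complex had 0 of 14 members past the threshold in either direction, 3 below 0 and a median of 0.076. Its brightest members were the histone binding proteins Rbbp7 at 0.26 ± 0.06 (SE, n = 3; limma adjusted p = 0.0765) and Rbbp4 at 0.077 ± 0.047 (adjusted p = 0.377, other probes -0.079 and 0.0054). After recentred median centring both passed (0.74 and 0.54), and Rbbp7 did with an intensity trend (limma adjusted p = 0.0242). With the processed signals Rbbp7 was at 0.081 and Rbbp4 at -0.17, and with loess of span 0.1 they were at 0.066 and -0.087. Pluripotency genes that work with Sall4 had 0 of 9 tested members past the threshold, 2 below 0 and a median of 0.11. The 2 below 0 were also the brightest. Lin28a, an RNA binding protein that blocks let-7 maturation, was at -0.22 ± 0.07 (adjusted p = 0.16), and Sox2, also a neural plate factor, at -0.13 ± 0.06 (adjusted p = 0.266). The other 7 members lay between 0.021 (Tcl1) and 0.39 (Nanog, adjusted p = 0.202), and the endpoints were named after their values were seen.

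Genes placed upstream or downstream of Spalt factors in limb, heart and kidney had 0 of 7 tested members past the threshold and a median of 0.069. The Polycomb gene Bmi1 was at 0.029 ± 0.056 (SE, n = 3; limma adjusted p = 0.793, other probe 0.23). Other developmental zinc finger genes, as Spalt genes are, had 0 of 17 tested members past the threshold and a median of 0.025. Egr2, the hindbrain segment factor Krox20, was at -0.31 ± 0.06 (adjusted p = 0.0729, and 0.023 with an intensity trend) and the Hedgehog effector gene Gli3 at -0.011 ± 0.056 (adjusted p = 0.926, other probe -0.11).

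**Figure D4:**
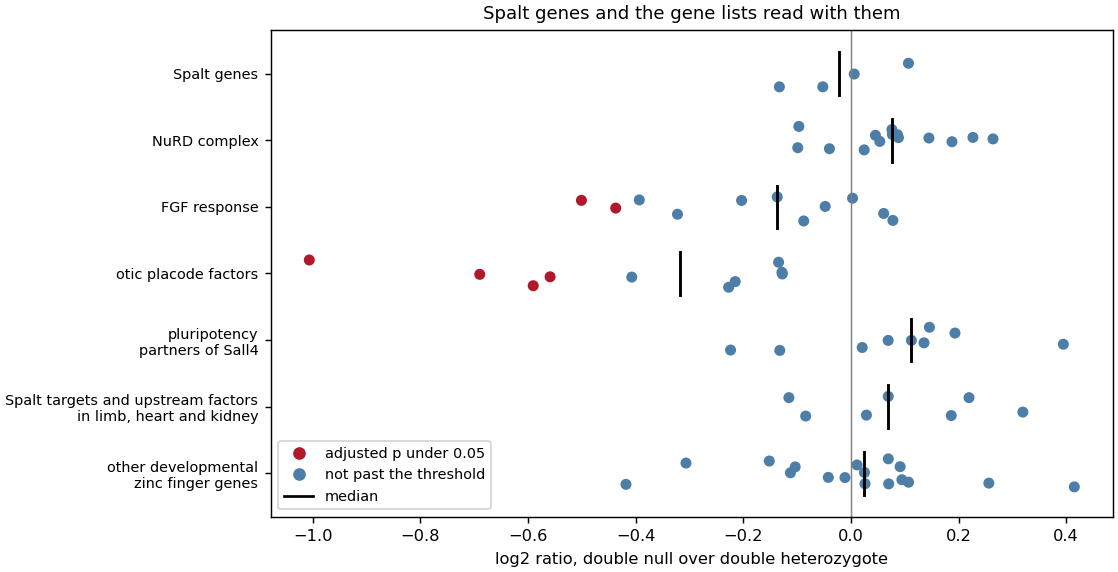
Log2 ratio of double null over double heterozygote (horizontal axis) of each tested gene, with a row for the 4 Spalt genes and for each of 6 gene lists, red past the threshold and with the median as a black bar. Red points are in the FGF response (2) and otic placode (4) rows, and the Spalt genes lie between -0.13 and 0.11.

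The genes nearest to each Spalt gene were found by the Euclidean distance of their 3 array ratios, among tested genes within 1 log2 unit of its brightness. For Sall1 these were Plec (distance 0.0071), Nupl2 (0.022) and Slc25a47 (0.032), among 95 genes within 0.1 of 2763 compared. Sall2 had 5 genes within 0.1 of 2091, and the nearest were Mtrex (0.075), Tnfrsf19 (0.081) and Lbr (0.082). For Sall3, with 40 genes within 0.1 of 3726, they included Uggt1 (0.035) and Man1b1 (0.043), and for Sall4 they were Slc15a4 (0.032), Sufu (0.046) and Dnmt3b (0.050). Between Spalt genes the shortest distance was 0.145, for Sall2 and Sall4, and the others were 0.309 to 0.431.

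Among facts of the whole series, Fgf3 had log2 ratios of -0.69, -0.064 and -0.69 (limma adjusted p = 0.11) and Fgf10 0.31, -0.11 and 0.23 (adjusted p = 0.368). The positions of both probes in the mutant genes were not analysed here, and the values are no check of the genotype labels. The tissue was checked with marker lists. All 6 surface ectoderm markers were measured (5 below 0, median -0.15, 0 past the threshold). Of 5 otic ectoderm markers 3 were (all below 0, median -0.23, 0 past), and Pax2 was not above background by the filter. The summed level of the surface ectoderm markers was 81320 to 89490 in the double heterozygote and 72300 to 84240 in the double null. For the 3 otic ectoderm markers the sums on arrays 1, 2 and 3 were 5485, 4705 and 5872 in the double heterozygote. In the double null they were lower on each array, at 3743, 4647 and 4735. Neural plate and hindbrain markers, tissue in which Spalt genes are also known to be expressed, had all 6 below 0 (median -0.14, 0 past), with sums of 56570 to 71700 and 52310 to 56910. The 5 neural crest markers (all below 0, median -0.22, 0 past) had sums of 31070 to 44230 against 35160 to 36720. For the 6 head mesoderm markers (3 below 0, median 0.051, 0 past) the sums were 26830 to 32050 against 25400 to 32180. Of 4 endoderm markers, sums 4367 to 5465 against 4568 to 4656, 3 were below 0 and 1 was called lower. This was Sox17 at -0.54 (limma adjusted p = 0.0139, other probe -0.36), while Afp was at 0.25 (adjusted p = 0.118). The Sox17 call was lost with background subtraction, the processed signals and the series table, where 0 genes were called. Blood and endothelial markers had 5 of 8 tested, all above 0 (median 0.67, 0 past), with sums of 1670 to 2285 in the double heterozygote and 4906, 1468 and 7731 on arrays 1, 2 and 3 in the double null. The part of any of these tissues in the Spalt ratios was not tested.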

How the data were processed

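Total RNA of pooled placodes was measured on 3 Agilent 2-colour arrays (3 double null and 3 double heterozygote pools). The submitters' processing notes name Agilent Feature Extraction 9.5.1.1. Deposited for each array are mean spot and median background intensity, not normalized, processed intensity (background subtracted, then dye normalization, per the file headers), its log10 ratio of Cy5 over Cy3, and a p-value per spot from the scanner's error model. Values of the series table deposited by the authors are log2 ratios and equalled the log10 ratio after conversion within 2.01e-06, so its scale and direction were settled. Positions are on mm7, per the file headers.

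Of 45018 spots per array, 43379 were no control. Background was corrected with normexp (offset 50) and ratios normalized by loess (span 0.3, controls at weight 0). Between 143 and 175 spots marked as outliers per array were left out. A probe was kept if 1 channel, Cy3 or Cy5, was well above background on every array and at least 2 arrays measured it (25506), and a gene was represented by its brightest probe (16842 genes, named through RefSeq records of GRCm38.p6). Channel levels were scaled between arrays by Aquantile. limma 3.58.1 (R 4.3.3) tested each mean ratio against 0 (functions lmFit and eBayes, prior degrees of freedom 4.21). A second fit over all kept probes gave each Spalt probe its own value. Arrays have no depth in counts, and their number limits the precision. Labels call the pools biological replicates.

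Members and lists were chosen with earlier results of these data known. Named were all Spalt probes, Fgf3, Fgf10, up to 4 called members of each of 6 lists or else its 2 brightest tested members, and 3 nearest genes per Spalt gene, with names that were no clone, prediction or accession; some of these genes are not reported here. Alternatives were other background corrections, signals, normalizations, filters, probe rules and priors, and each array left out. Recentred median centring was added after seeing the data.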

Additional observations from a re-analysis of the deposited data

How the results depend on the processing

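Median centring gave Sall1 0.31, Sall2 0.54, Sall3 0.59 and Sall4 0.53, all past the threshold, where the loess ratios were not. It also turned Dusp6 (0.23), Lin28a (0.52), Sox2 (0.46), Egr2 (0.44) and Gli3 (0.64) upward, as it did the genes as a whole, whose medians were 0.43, 0.38 and 0.37 on the 3 arrays. Recentred on those genes, Sall3 was at 0.20 past the threshold and Gli3 at 0.25, Dusp6 was at -0.16, Lin28a at 0.13, Sox2 at 0.068 and Egr2 at 0.045, while Sall1, Sall2 and Sall4 had the opposite sign to that after loess and did not pass. These Sall3 and Sall4 values are of the brighter probes, and the second probes were at -0.0050 and -0.059. In the other settings Sall2 and Sall3 kept their sign, Sall4 did except without replicate 2 (0.030), and with each array left out Sall1 ranged from -0.042 to 0.078.

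The 411 genes called (77.4% higher) became 227 with an offset of 16, 239 and 23 with loess on probes above background at spans 0.3 and 0.1, 983 with an intensity trend, 1116 at adjusted p under 0.10, 13425 with median centring (91.1% higher) and 8893 after recentring (44.8% higher), and 68 to 276 when an array was dropped (68 for replicate 3, 220 for replicate 2). limma called 0 genes with background subtraction (3272 at unadjusted p under 0.05), 0 with processed signals (3218) and 0 with the series table (3269). The 384 probes called (80.7% higher) became 199 with an offset of 16, 210 and 11 with the 2 loess spans, 993 with an intensity trend, 19626 with median centring (90.5% higher) and 13269 after recentring (36.5% higher), 86 to 305 when an array was dropped (86 for replicate 3, 231 for replicate 2), and 0 with background subtraction, processed signals and the series table (4426, 4417 and 4469 probes at unadjusted p under 0.05). The cause of these changes was not tested.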

Other observations

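One further probe, A_51_P284930, is described in the files as a spalt transcription factor but carries a transcript identifier in place of a gene name, so it was no member. It was well above background in the double null channel on 3 arrays and in the double heterozygote channel on 0 (limma adjusted p = 0.445 in the fit over all probes). Its log2 ratios were 0.074, 0.029 and 0.12 on the 3 arrays, so the channels lay close together although only that of the double null passed the background test. A ratio with 1 channel not well above background is an unsure measure, and presence in 1 genotype alone cannot be read from it.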
